A study of Mus musculus with 29 samples.

Results

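Of the 24062 genes in the deposited RNA-seq table, 9 were followed here: *Lrrtm1*, *Lrrtm2*, *Lrrtm3*, *Lrrtm4*, *Elfn1*, *Elfn2*, *Flrt1*, *Flrt2* and *Flrt3*. They were chosen by name, as the LRRTM, ELFN and FLRT families of leucine-rich repeat adhesion proteins, and all 9 passed the filter on low counts. Each was described across 15 RNA-seq libraries, 3 for each of 5 cell populations sorted from adult mouse retina, and across 12 ATAC-seq libraries, 2 for each of 6 populations. All bipolar cells carried 1 copy of *Otx2*-GFP, a GFP knock-in at *Otx2* that is bright in bipolar cells and dim in photoreceptors. The pan-BC RNA libraries (all bipolar cells, *Otx2*-GFP+/-, single sort) came from mice at postnatal day 44 or 47. ON-BC (single sort) and OFF-BC (double sort) RNA libraries came from *Otx2*-GFP+/-; *Grm6*-YFP+/+ mice at postnatal day 42, 43 or 48, in which the *Grm6* promoter drives YFP in ON bipolar cells. All bipolar ATAC-seq libraries, pan-BC included, carried both transgenes and came from mice at postnatal day 42 to 46. Rods (*Nrl*-eGFP) and *Nrl*-/- photoreceptors (*Nrl*-eGFP;NrlKO), used as a surrogate for blue cones and called blue cones below, were single-sorted at postnatal day 56. Green cones (*Opn1mw*-GFP, day 56) had ATAC-seq libraries. The photoreceptor libraries were taken from an earlier study by the same laboratory, so that cell class, study and age cannot be told apart in any comparison of bipolar cells with photoreceptors. Likewise, pan-BC differed from ON-BC and OFF-BC RNA in genotype. In bulk samples, fewer cells of a type that expresses a gene and less RNA of that gene per cell cannot be told apart.

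The LRRTM, ELFN and FLRT proteins are single-pass membrane proteins whose extracellular leucine-rich repeats bind partners across the synaptic cleft. LRRTMs sit on the postsynaptic side and bind neurexins, and LRRTM4 also binds the heparan sulphate chains of glypicans. ELFN proteins bind group III metabotropic glutamate receptors. In the outer retina, ELFN1 made by photoreceptors meets mGluR6, the *Grm6* product, on the dendrites of ON bipolar cells, which use that receptor to respond to glutamate. FLRTs bind latrophilins and UNC5 receptors in neuronal guidance and synapse formation.

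The RNA libraries held 12329548 to 26266746 reads on genes and the ATAC-seq libraries 4176776 to 12345845 reads on 200-bp regions. Values below are the deposited normalized counts, in which 1 read is worth 0.740 to 1.22 in RNA. The sorts carried their markers: the summed level of 7 ON bipolar markers ranged from 152001 to 169761 in ON-BC and from 18532 to 27946.6 in OFF-BC, and that of 5 OFF bipolar markers ranged from 32375.9 to 53391 in OFF-BC and from 3778.67 to 4004.58 in ON-BC, although 2 of these 5, *Bhlhe23* and *Tacr1*, were themselves called higher in ON-BC. Photoreceptor RNA was present in the bipolar libraries. For 7 rod markers the sums reached 33305.5 to 41852.3 among pan-BC libraries, 20201.7 to 25437.5 among ON-BC and 3580.25 to 17890.6 among OFF-BC, against 1791940 to 2464530 among rods. The third OFF-BC library stood apart, with a sum over 7 cone markers of 103966 against 34672.7 and 29869.9 in the other two.

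Of the 9 genes, 8 differed between pan-BC and rods, and in opposite directions within the ELFN family. *Elfn2*, *Lrrtm3*, *Lrrtm1*, *Lrrtm4*, *Flrt1*, *Flrt3* and *Lrrtm2* were higher in pan-BC, whereas *Elfn1* was higher in rods. Against blue cones 6 of 9 differed: *Lrrtm1*, *Lrrtm4*, *Lrrtm3*, *Flrt1* and *Flrt3* were higher in pan-BC and *Elfn1* was lower. The test was limma's treat against a log2 fold change of 1, fitted on all 15 libraries and 14024 genes with Benjamini-Hochberg adjustment, and genes with an adjusted p under 0.05 are called. It called 43.6% of all genes tested between pan-BC and rods (27.8% higher and 15.8% lower) and 36.3% between pan-BC and blue cones (22.7% higher and 13.7% lower), so calls were common in both comparisons. The median log2 fold change of the 9 genes was 5.42 against rods and 4.96 against blue cones, beside 0.21 and 0.16 over all genes tested.

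**Figure D1:**
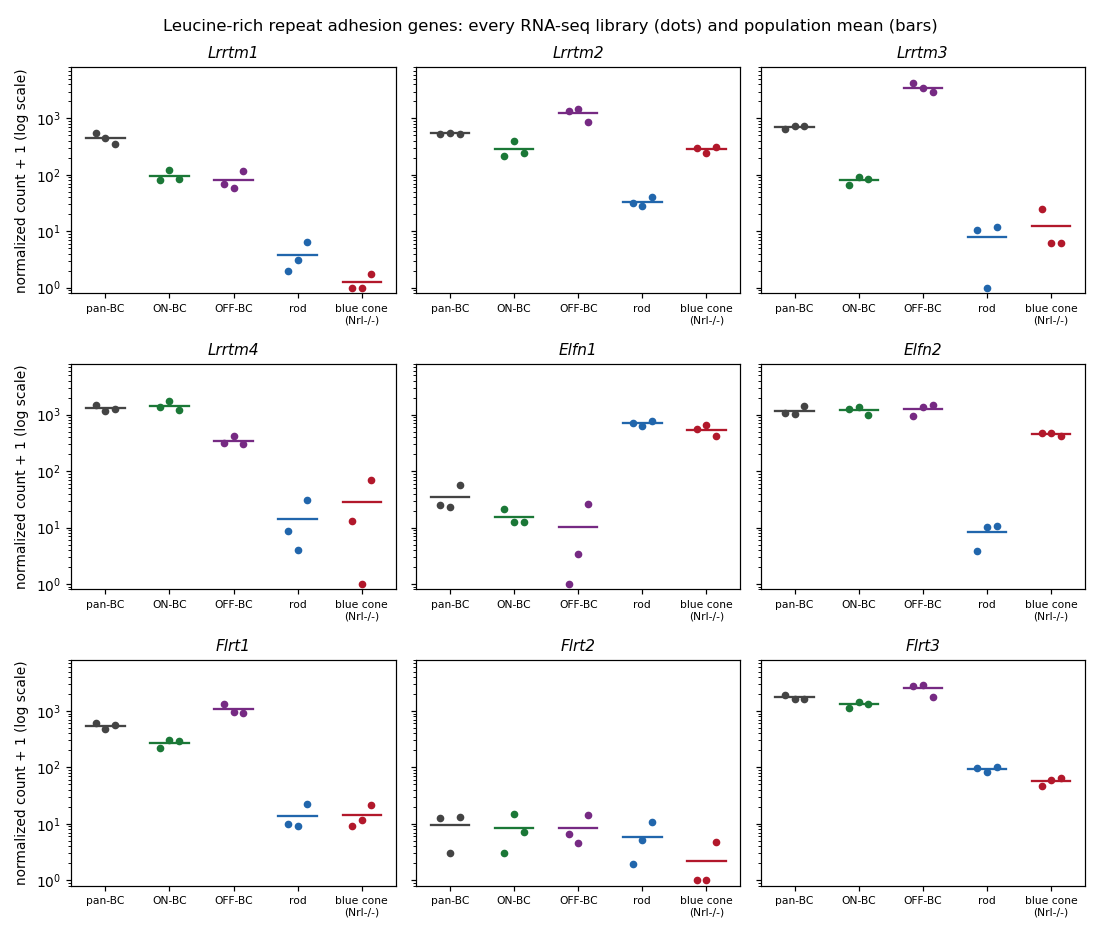
Normalized RNA-seq counts plus 1 (log axis) of the 9 genes in each of 15 libraries (dots, 3 per population) with the population mean (bars). *Elfn1* is the gene whose photoreceptor libraries all lie above the bipolar ones, *Elfn2* and *Lrrtm2* are present in blue cones and near the bottom of their range in rods, and *Flrt2* stays low everywhere.

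*Elfn1* was the photoreceptor member. Rods held 705, 624 and 774 normalized counts, and blue cones 546, 651 and 414. Of the bipolar populations, pan-BC held 24.5, 22.2 and 55.1, ON-BC 20.6, 11.8 and 11.3, and OFF-BC 0, 2.40 and 25.4. Every photoreceptor library lay above every bipolar library, and rods and blue cones overlapped. The log2 fold change of pan-BC over rods was -4.44 ± 0.76 (SE; limma treat, adjusted p = 0.00052) and that over blue cones -4.04 ± 0.76 (adjusted p = 0.0019). Among the OFF-BC libraries, the third, with the highest *Elfn1* value, was also the one with the highest rod and cone marker sums. The part of photoreceptor RNA in these low bipolar values was not tested. With that library left out, ON-BC over OFF-BC went, on the log2 scale, from 1.75 (adjusted p = 1) to 3.03 (adjusted p = 0.0076), and pan-BC over OFF-BC from 2.84 (adjusted p = 0.27) to 4.12 (adjusted p = 0.00031).

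*Elfn2* was the converse, and separated the 2 kinds of photoreceptor. Pan-BC held 1085, 1035 and 1406 normalized counts, ON-BC 1250, 1372 and 985, and OFF-BC 956, 1349 and 1494. Blue cones held 480, 480 and 417, and rods 2.91, 9.22 and 9.73. The 3 bipolar populations overlapped one another, blue cones lay below all of them, and rods lay below blue cones. Rods over blue cones gave a log2 fold change of -5.93 ± 0.29 (adjusted p = 3.6e-10), a mean ratio of 63.0 in favour of blue cones. That of pan-BC over blue cones was 1.34 ± 0.29 and was not called (adjusted p = 0.29); edgeR on the recovered reads called it (adjusted p = 0.049). For scale, the 7 ON bipolar markers summed to 137127 to 149476 among pan-BC libraries against 1047.68 to 1723.8 among blue cones, and the 5 OFF bipolar markers to 9765.39 to 11526.9 against 366.273 to 467.031. A broader list of 9 bipolar markers, which includes *Otx2*, a gene that photoreceptors also use, summed to 185291 to 212754 among pan-BC libraries against 36630.3 to 42972 among blue cones. The part of bipolar RNA in the blue cone value of *Elfn2* was not tested.

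The LRRTM genes each had their own pattern within the bipolar populations. For *Lrrtm3*, OFF-BC held 4220, 3472 and 2889 normalized counts, pan-BC 652, 736 and 739, and ON-BC 66.0, 92.1 and 82.1. Rods held 9.70, 0 and 10.8 and blue cones 24.1, 5.31 and 5.18. OFF-BC was therefore highest, with pan-BC between it and ON-BC, and the 3 bipolar populations did not overlap. ON-BC over OFF-BC gave a log2 fold change of -5.44 ± 0.70 (adjusted p = 0.00016), a mean ratio of 44.0 in favour of OFF-BC.

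*Lrrtm2* followed the same order at a smaller scale, with OFF-BC at 1367, 1439 and 861, pan-BC at 537, 552 and 532, and ON-BC at 216, 392 and 245. ON-BC over OFF-BC gave a log2 fold change of -2.11 ± 0.23 (adjusted p = 0.0021). It was the highest of the LRRTM genes in blue cones, at 296, 241 and 305, which overlapped ON-BC. Rods held 31.0, 26.6 and 40.0, and the log2 fold change of rods over blue cones was -3.08 ± 0.23 (adjusted p = 1e-06). Pan-BC lay above blue cones in all libraries, with a log2 fold change of 0.95 that was not called (adjusted p = 1).

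*Lrrtm4* ran the other way. ON-BC held 1383, 1765 and 1188, pan-BC 1502, 1166 and 1242, and OFF-BC 313, 416 and 305. ON-BC and pan-BC overlapped and OFF-BC lay below both. The log2 fold change of ON-BC over OFF-BC was 2.06 ± 0.99 and was not called in the fit over all libraries (adjusted p = 1), which uses 1 spread per gene over the 5 populations and so includes blue cone libraries at 12.03, 0 and 68.8. With the ON-BC and OFF-BC libraries alone its SE was 0.17 and it was called (adjusted p = 0.00062), as it was with the replicate number added to that fit as a block (adjusted p = 9.5e-05). It was also called by edgeR (adjusted p = 0.038) but not by DESeq2 (adjusted p = 1). Rods held 7.76, 3.07 and 29.2 of *Lrrtm4*.

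*Lrrtm1* was highest in pan-BC, at 547, 448 and 350. ON-BC held 79.5, 121 and 83.1 and OFF-BC 67.1, 56.5 and 116, which overlapped. Rods held 1, 2 and 5 reads, and blue cones 1 read over 3 libraries. The ratio of pan-BC to blue cones was 1810, with a 95% exact counting interval from 324 to 71532 that covers counting error only. Pan-BC lay above both subsets in every library, with log2 fold changes of 2.23 ± 0.43 over ON-BC (adjusted p = 0.31, not called) and 2.52 ± 0.43 over OFF-BC (adjusted p = 0.043, called). The call over OFF-BC was the 1 call among the 9 genes in that comparison, beside 3.37% of all genes tested (2.65% higher in pan-BC). It was not stable, as its adjusted p ranged from 4.8e-05 to 0.22 over the alternatives and 5 of the 6 libraries were each needed for it. With the pan-BC and OFF-BC libraries alone *Lrrtm1*, *Lrrtm3* and *Lrrtm4* were called (beside 5.07% of all genes), with edgeR *Lrrtm1* and *Lrrtm3* (5.38%), and with DESeq2 *Lrrtm1* (3.91%). For pan-BC over ON-BC 0 of 9 genes were called by limma treat, beside 1.06% of all genes. With those 2 populations alone *Lrrtm1* (adjusted p = 0.002) and *Lrrtm3* (adjusted p = 8.1e-07) were called, beside 1.37% of all genes, and the same 2 genes were called by edgeR (1.54%) and DESeq2 (1.16%). The summed level of 9 amacrine markers, 568.945 to 618.374 among pan-BC libraries, lay between that of ON-BC (328.328 to 488.938) and OFF-BC (926.527 to 1112.52), while that of 8 ganglion cell markers was 381.851 to 408.551 among pan-BC libraries, above ON-BC (279.634 to 336.084) and OFF-BC (62.5881 to 125.796). Pan-BC cells for RNA were sorted on bright *Otx2*-GFP. *Lrrtm1* is known as a gene of the BC5D type of cone bipolar cell. The ON-BC and OFF-BC gates also split cells by *Grm6*-YFP, which the pan-BC RNA mice did not carry. The part of ganglion cell RNA, or of cells outside the 2 subset gates, in the pan-BC value was not tested.

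Among the FLRT genes, *Flrt3* had the highest bipolar values. Per library, pan-BC held 1954, 1649 and 1657 normalized counts, ON-BC 1113, 1463 and 1346, and OFF-BC 2786, 2934 and 1798. Rods held 96.1, 80.9 and 100.5 and blue cones 45.1, 57.7 and 64.4. Bipolar libraries all lay above photoreceptor libraries, with log2 fold changes of pan-BC over rods of 4.23 ± 0.18 (adjusted p = 5.3e-11) and over blue cones of 4.96 ± 0.18 (adjusted p = 1.5e-11). The value of ON-BC over OFF-BC was -0.91 ± 0.18 and was not called (adjusted p = 1), since the test asks for a change beyond a log2 of 1, although the 2 populations did not overlap.

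For *Flrt1*, OFF-BC held 1342, 967 and 930, pan-BC 605, 476 and 553, and ON-BC 219, 300 and 291, while rods held 8.73, 8.19 and 21.6 and blue cones 8.27, 10.6 and 20.7. OFF-BC lay above pan-BC and pan-BC above ON-BC in every library, and the photoreceptor populations overlapped. ON-BC over OFF-BC gave a log2 fold change of -1.99 ± 0.34, just short of the threshold (adjusted p = 0.073); it was called with the 2 populations alone (adjusted p = 0.0013; 0.0034 with the replicate block), by edgeR (adjusted p = 0.00052) and by DESeq2 (adjusted p = 0.00017). *Flrt2* was near the limit of detection everywhere, with 2.02 to 12.2 for pan-BC, 2.06 to 13.7 for ON-BC, 3.60 to 13.2 for OFF-BC, 0.97 to 9.73 for rods and 0 to 3.70 for blue cones, where 3 reads are worth 2.22 to 3.67. None of its differences passed the test, and without the third blue cone library pan-BC over blue cones did (adjusted p = 0.047).

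Between ON-BC and OFF-BC, 2 of 9 genes were called, *Lrrtm2* and *Lrrtm3*, both lower in ON-BC, beside 6.55% of all genes tested (3.6% lower in ON-BC). With the 6 ON-BC and OFF-BC libraries alone 4 of 9 were called, the same 2 with *Flrt1* and *Lrrtm4*, beside 7.66% of all genes. The same 4 were called by edgeR, beside 8.74%, and *Lrrtm2*, *Lrrtm3* and *Flrt1* by DESeq2, beside 7%. Libraries of the 2 populations did not overlap for 5 of 9 genes, *Lrrtm2*, *Lrrtm3*, *Lrrtm4*, *Flrt1* and *Flrt3*, and for 42.2% of all genes. Between rods and blue cones, 2 of 9 were called, *Elfn2* and *Lrrtm2*, both lower in rods, beside 15.9% of all genes (11.3% lower in rods).

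**Figure D2:**
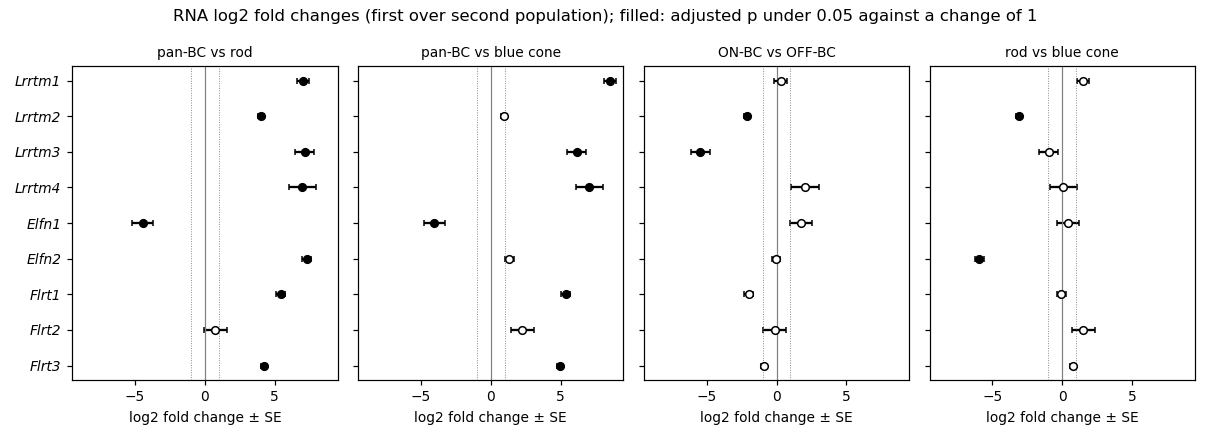
Log2 fold changes (first over second population, ± SE from the fit over 15 libraries) of the 9 genes in 4 comparisons; filled points have an adjusted p under 0.05 against a log2 change of 1, marked by dotted lines. *Elfn1* lies left of 0 in both comparisons of pan-BC with photoreceptors, *Lrrtm3* at -5.44 is the outermost point for ON-BC over OFF-BC, and *Elfn2* at -5.93 that for rods over blue cones.

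To compare genes, levels were divided by the length of all curated exons of each gene. Which transcripts were expressed was not determined, so the order of genes with close values is uncertain. Per kb of exon, *Flrt3* led in pan-BC (386 ± 38.3, SD, n = 3), followed by *Lrrtm4* (268 ± 36.2), *Lrrtm3* (184 ± 12.8) and *Elfn2* (149 ± 25.5). In ON-BC *Lrrtm4* (297 ± 60.2) and *Flrt3* (288 ± 39.2) led and differed by less than their spread. In OFF-BC *Lrrtm3* led (916 ± 173), followed by *Flrt3* (552 ± 136). *Lrrtm3* made up 43.3% of the summed per-kb level of the 9 genes in OFF-BC and 2.37% in ON-BC, and *Lrrtm4* 3.34% and 33.9%. In photoreceptors *Elfn1* was the leading part of the same sum, at 81.0% in rods (149 ± 16.0 per kb) and 46.6% in blue cones (114 ± 25.2 per kb), where *Elfn2* added 23.7% and *Lrrtm2* 20.2%.

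The partners of these proteins, from lists of known binding genes, were measured in the same libraries. Of the ELFN partners, *Grm6* encodes the ON bipolar glutamate receptor mGluR6. ON-BC averaged 13499 ± 300 normalized counts (SD, n = 3), pan-BC 8107 ± 630, OFF-BC 268 ± 284, rods 68.2 ± 39.7 and blue cones 124 ± 53.3. It was highest in ON-BC, with a log2 fold change of ON-BC over OFF-BC of 6.24 ± 0.55 (adjusted p = 2.7e-06). *Grm7*, which encodes a group III receptor found at presynaptic terminals, was shared by the bipolar populations, with ON-BC at 389 ± 17.8 and OFF-BC at 596 ± 90.5, while rods held 5.20 ± 4.36. *Grm8*, another group III receptor, was the photoreceptor member, at 1047 ± 72.0 in rods, 454 ± 80.2 in blue cones and 19.8 ± 2.55 in pan-BC (log2 fold change of pan-BC over rods -5.66 ± 0.29, adjusted p = 2.1e-10). *Grm4* had 6.66 or less in every library and was not tested. So *Elfn1* and *Grm8* were both lower in pan-BC than in the photoreceptors, while *Elfn2*, *Grm6* and *Grm7* exceeded their rod levels.

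**Figure D3:**
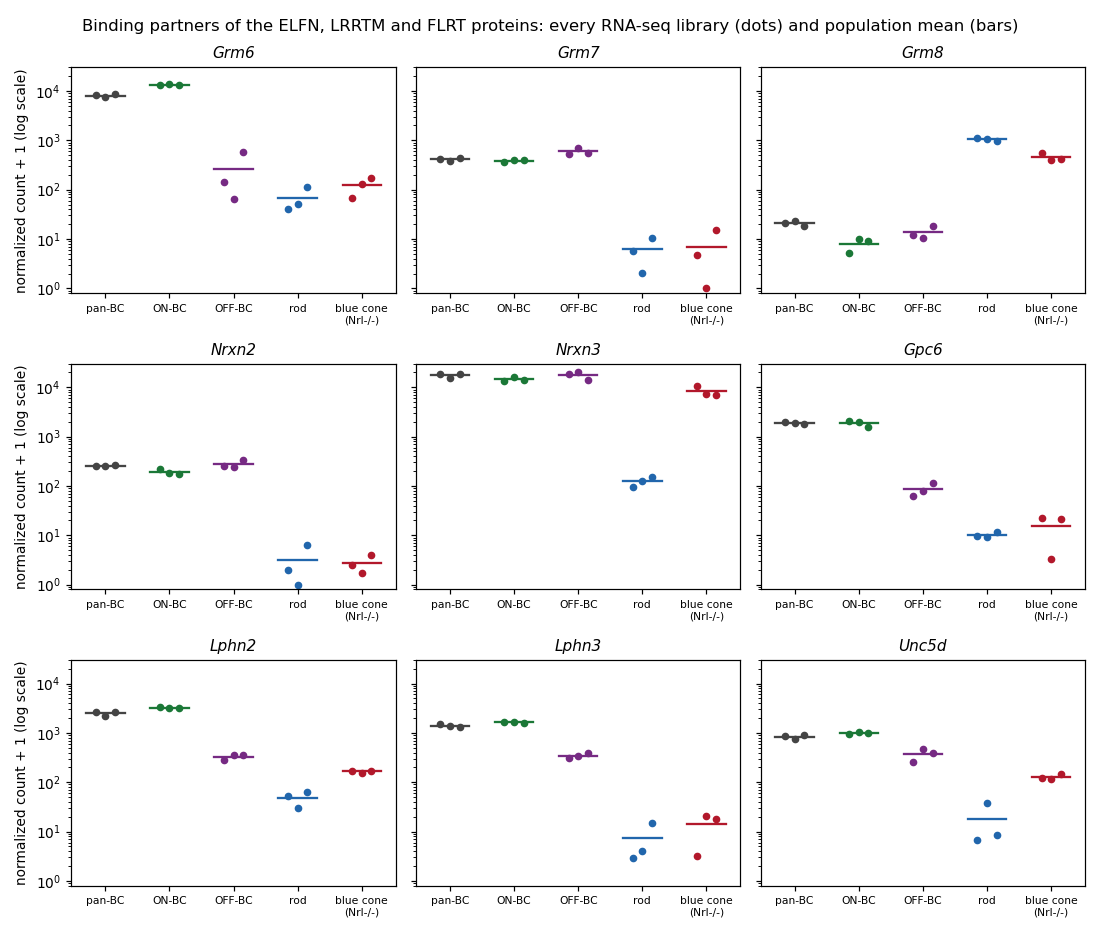
Normalized RNA-seq counts plus 1 (log axis) of 9 binding partners in each of 15 libraries (dots) with the population mean (bars). *Grm6* and *Grm8* show opposite orders, *Gpc6* and *Lphn2* are lower in OFF-BC than in ON-BC, and *Nrxn3* is present in blue cones at a mean of 8274 against 124 for rods.

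Of the LRRTM partners, those called between pan-BC and rods included the neurexins *Nrxn2* and *Nrxn3*, the glypicans *Gpc1* and *Gpc6* and the receptor phosphatase *Ptprs*, and all of these were higher in pan-BC. *Nrxn3*, which encodes a presynaptic neurexin, averaged 17469 for pan-BC, 14476 for ON-BC, 17548 for OFF-BC, 8274 for blue cones and 124 for rods. Like *Elfn2*, it was lower in rods than in blue cones (log2 fold change -6.05 ± 0.18, adjusted p = 4.3e-13). *Gpc6*, a heparan sulphate carrier, was the partner called between ON-BC and OFF-BC, at 1879 ± 287 and 85.9 ± 27.2 (log2 fold change 4.47 ± 0.50, adjusted p = 7.5e-05), the same direction as the ON-BC and OFF-BC values of *Lrrtm4*.

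Of the FLRT partners, 8 of 10 were tested, and between pan-BC and rods 5 were called, all higher in pan-BC, beside 27.8% of all genes. The latrophilins *Lphn2* and *Lphn3*, adhesion receptors that FLRT3 binds, had means of 2508 and 1390 in pan-BC and 46.9 and 6.35 in rods. *Lphn2* differed between the bipolar subsets, at 3263 ± 78.5 in ON-BC and 330 ± 45.1 in OFF-BC (log2 fold change 3.31 ± 0.20, adjusted p = 3.5e-07). *Lphn3* had 1640 ± 21.4 and 345 ± 42.2 (log2 fold change 2.25, adjusted p = 0.26, not called). The UNC5 receptor gene *Unc5d* had a mean of 840 in pan-BC and 16.8 in rods, and *Unc5c* of 17.2 in pan-BC and 0.25 in blue cones. The ON-BC means of *Lphn2* and *Lphn3* were therefore above those of pan-BC, and the ON-BC means of *Flrt1* and *Flrt3* below.

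Of the 9 genes, 5 sit inside an intron of a larger gene on the opposite strand, with 0 bp of exon shared: *Lrrtm1* in *Ctnna2*, *Lrrtm2* in *Ctnna1*, *Lrrtm3* in *Ctnna3*, *Flrt1* in *Macrod1* and *Flrt3* in *Macrod2*. The first 3 hosts encode alpha-catenins, which link cadherins to actin, and the last 2 encode macrodomain proteins. The library kit does not mark strand, so unspliced host RNA over a member's exons could not be told apart from the member's own RNA. The levels of hosts and nested genes differed. *Ctnna3* had 0 to 6.62 normalized counts in all 15 libraries, while *Lrrtm3* reached 4220 in OFF-BC. *Ctnna1* was higher in rods (mean 4126) and blue cones (9529) than in pan-BC (1183), the opposite of *Lrrtm2* for rods, but was lower in ON-BC (667) than in OFF-BC (3061) as *Lrrtm2* was (log2 fold change -2.20 ± 0.15, adjusted p = 2.3e-05). *Ctnna2* averaged 1048 for pan-BC, 1014 for ON-BC and 1167 for OFF-BC, with overlapping libraries, and 24.7 for rods. *Macrod1* had 189 in pan-BC and 32.5 in rods, and *Macrod2* 250 in pan-BC and 332 in rods, where *Flrt3* was 19.0 times lower than in pan-BC.

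A list of 30 other leucine-rich repeat genes of synapses was counted in the same way. Of 28 tested, 22 were called upward in pan-BC against rods and 2 downward, with a median log2 fold change of 4.74. Of all genes tested, 27.8% were called upward there and 15.8% downward. *Nyx*, which encodes nyctalopin of the mGluR6 cascade, had a mean of 482 in pan-BC and 1.35 in rods, *Slitrk5*, a SLITRK family gene, 420 and 0.70, and *Lrtm1* 20366 and 103. The 2 that fell, named after their values were seen, were *Lrit2*, at 1971 in pan-BC and 16639 in rods, and *Lrit3*, which encodes a photoreceptor protein needed for nyctalopin in ON bipolar dendrites, at 40.6 and 392. *Elfn1* therefore had the direction of these 2 genes. Against blue cones, 19 of these 28 genes were called higher in pan-BC and 4 lower, beside 22.7% and 13.7% of all genes tested. In that comparison 5 of 8 FLRT partners were called higher. Of the 4 host genes tested 2 were higher and 1 lower, as they were against rods. Between ON-BC and OFF-BC, *Slitrk6* (97.5 and 6132) and *Lrfn5* (0 reads in all ON-BC libraries, mean 33.0 in OFF-BC) were lower in ON-BC, and *Tpbg*, an oncofetal trophoblast glycoprotein gene, was higher (2266 and 103).

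The genes whose pattern over the 15 libraries was most like each member were found by the root-mean-square difference of mean-centred log2 levels. For *Elfn2* they were *App* (0.28), *Epb4.1l1* (0.35) and *Nrxn3* (0.36), for *Lrrtm2* *Hpcal4* (0.27), *Wbscr27* (0.35) and *Dtna* (0.37), and for *Flrt3* *Cdh11* (0.34), *Map1a* (0.37) and *Mif* (0.37), where the unit is log2 and the median over all genes was 1.85 to 2.85 for these 3 members. *Elfn1* was most like *Podxl* (0.66), *Tnfsf12* (0.68) and *Vtn* (0.72). *Lrrtm3* was nearest to *Adamtsl1* (0.64) and *Lrrtm4* to *Fstl5* (0.83). Nearest for *Lrrtm1* was *Pim1* (0.85), for *Flrt1* *2610027K06Rik* (0.39) and for *Flrt2*, at low counts, *Nrtn* (0.66). Among the 9 genes the closest pair was *Flrt1* and *Flrt3* (0.64).

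Chromatin accessibility was measured in 110715 regions of 200 bp. A region was given to a gene when the nearest start site of a curated RefSeq transcript belonged to it and lay within 50 kb, which gave 69 regions to the 9 genes. Between pan-BC and rods 49 of 69 regions were called, 31 higher and 18 lower in pan-BC, beside 51.6% of the 108448 regions tested (40.3% higher and 11.2% lower; limma treat on 12 libraries). Against blue cones 36 were called, 22 higher and 14 lower, beside 35.9% (28.8% higher and 7.13% lower). The median log2 fold change of pan-BC over rods was 1.16 over all regions and 0.36 over the 69. The directions split by gene. For *Lrrtm1* 8 of 8 regions, for *Flrt2* 4 of 4 and for *Flrt1* 6 of 8 were more accessible in pan-BC than in rods with none less, whereas for *Elfn1* 11 of 19 were less accessible and none more. *Elfn2* was mixed, with 4 of 14 higher and 4 lower. The ON-BC and OFF-BC libraries differed at 5 of 69 regions, beside 7.39%; of these 2 were higher in ON-BC (4.58% of all) and 3, all near *Elfn1*, were lower (2.8% of all). Rods and blue cones differed at 6, all lower in rods (8.56% of all), beside 10% in either direction. Scaling moved the balance of the ON-BC and OFF-BC comparison over all regions: 62.1% of called regions were higher in ON-BC (median log2 fold change 0.15), which became 51.5% (-0.067) with TMM scaling and 47.6% (-0.14) with library totals.

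**Figure D4:**
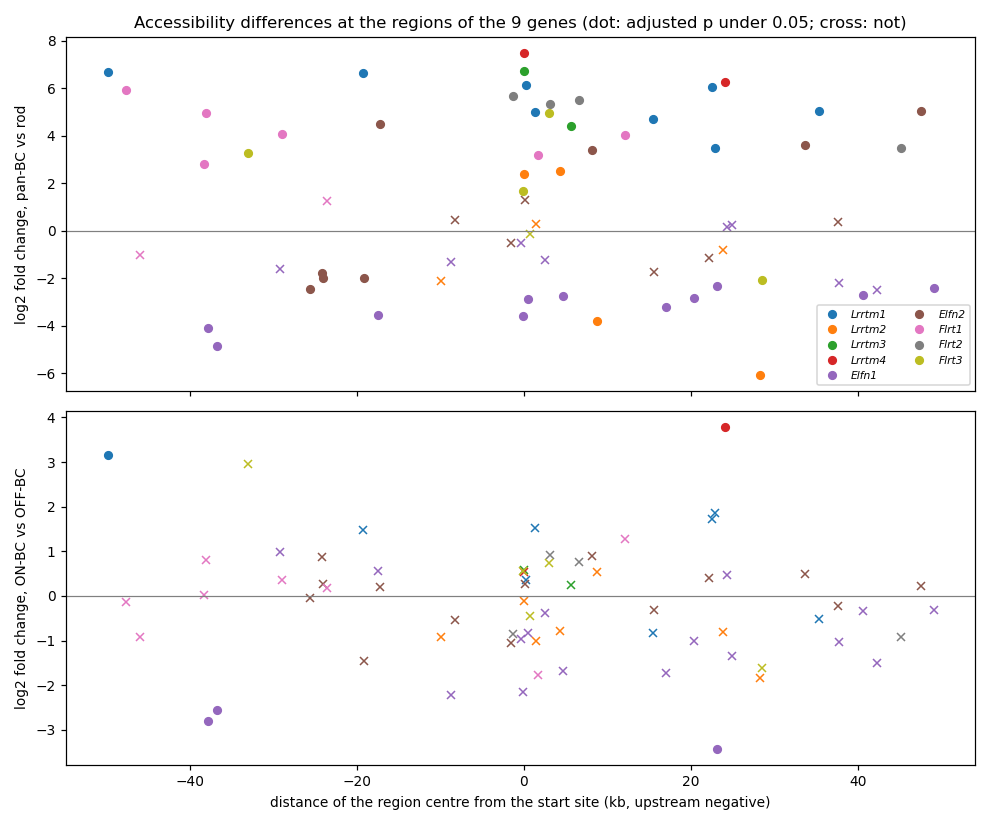
Log2 fold change of accessibility at 69 regions of the 9 genes against the distance of the region from the start site, for pan-BC over rods (top) and ON-BC over OFF-BC (bottom); dots have an adjusted p under 0.05, crosses do not. The regions of *Elfn1* lie below 0 or near it in the upper panel, those of *Lrrtm1* above it, and 5 dots remain in the lower panel.

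Peaks in the promoter window, which began 1000 bp before the start site and ended 100 bp after it, were called by the authors in each of 14 libraries, which include 2 double-sorted green cone libraries. *Flrt3* had one in 14 of 14 libraries, in rods and cones as well as bipolar cells, while its RNA differed. *Lrrtm4* had one in the 6 bipolar libraries and in no photoreceptor library. *Lrrtm1* had the same 6, which fell to 0 when an overlap of 100 bp was required. *Lrrtm2* and *Elfn2* had 12 each and *Lrrtm3* 10. Those of *Lrrtm3* had an enrichment of 17.9 to 26.9 over background in bipolar libraries and of 4.92 in the 1 blue cone library with a peak. In single-sorted green cones it was 7.56 and 11.4, and in a double-sorted green cone library 5.84. *Elfn1* had 7, in all rod and blue cone libraries, the single-sorted green cones and 1 OFF-BC library. *Flrt1* and *Flrt2* had none.

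The strongest *Elfn1* region was at -36.8 kb, between genes. Rods held 806 and 878 normalized counts there, green cones 435 and 393, blue cones 267 and 274, OFF-BC 82.2 and 101, pan-BC 22.4 and 35.4, and ON-BC 14.9 and 14.6. All photoreceptor libraries lay above all bipolar libraries, and rods lay above cones. The log2 fold change of pan-BC over rods was -4.85 ± 0.23 (adjusted p = 7.5e-10). ON-BC was below OFF-BC by a log2 fold change of -2.55 ± 0.23 (adjusted p = 0.00033). The promoter regions of 6 cone markers had summed counts of 350.256 to 376.731 in OFF-BC and 55.2442 to 55.6379 in ON-BC. Those of 7 rod markers differed less, with 185.932 to 198.029 in OFF-BC and 147.88 to 173.198 in ON-BC. The part of photoreceptor chromatin in the OFF-BC value was not tested. A neighbour at -37.9 kb had 178 and 205 in rods and 12.002 and 8.55 in pan-BC. At the promoter the region at -0.11 kb had 59.96 and 73.2 for rods, 72.5 and 90.3 for blue cones and 4.0006 and 5.13 for pan-BC (log2 fold change of pan-BC over rods -3.60 ± 0.45, adjusted p = 5.4e-05). For *Elfn2* the intergenic region at -17.3 kb followed the order of its RNA in pan-BC, blue cones and rods. It had 56.0 and 63.3 in pan-BC, 20.7 and 39.7 in blue cones, and 0 and 6.10 in rods. Green cones, which had no RNA libraries, held 3.07 and 11.3 there. Rods over blue cones gave -3.48 ± 0.68 (adjusted p = 0.014, lost without the first rod or the second blue cone library). Pan-BC over blue cones was not called at this region. An exonic *Elfn2* region at +47.5 kb had 125 and 113 in pan-BC, 15.5 and 17.3 in blue cones and 1.56 and 4.07 in rods. The promoter region at +0.2 kb had 60.9 and 73.0 in blue cones, 54.4 and 39.3 in pan-BC and 15.6 and 21.0 in rods, and no difference there was called. A region at +37.6 kb, named after its values were seen, was open in cones, at 73.8 and 88.2 in blue and 38.4 and 50.7 in green cones against 7.79 and 7.45 in rods and 8.00 and 12.5 in pan-BC (rods over blue cones -3.24 ± 0.49, adjusted p = 0.0029). Of 14 *Elfn2* regions, 4 were called lower in pan-BC than in rods, opposite to the RNA. Among these, that at -24.3 kb, named after its values were seen, had 407 and 433 in rods and 130 and 113 in pan-BC. The 2 sequences shown, on the plus strand of GRCm38, are those of *Elfn1* at -36.8 kb and *Elfn2* at -17.3 kb. Capitals mark matches to TAATCC, the site of K50 homeodomain proteins such as OTX2 and CRX, on either strand; the *Elfn1* region holds 2 and the *Elfn2* region none of the 3 motifs searched.
Elfn1 region, chr5:139870975-139871174: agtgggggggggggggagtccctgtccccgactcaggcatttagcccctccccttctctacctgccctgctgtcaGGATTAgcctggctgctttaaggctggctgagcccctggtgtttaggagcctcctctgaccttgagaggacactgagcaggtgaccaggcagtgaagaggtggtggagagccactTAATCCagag
Elfn2 region, chr15:78735944-78736143: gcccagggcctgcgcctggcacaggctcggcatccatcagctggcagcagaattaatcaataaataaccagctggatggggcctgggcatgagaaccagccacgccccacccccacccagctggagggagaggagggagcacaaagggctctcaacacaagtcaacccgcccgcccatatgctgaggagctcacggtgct

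In the LRRTM genes RNA and promoter accessibility did not always go together between ON-BC and OFF-BC. The region over the *Lrrtm3* start site gave pan-BC 212 and 322 normalized counts, ON-BC 323 and 286, OFF-BC 213 and 194, rods 1.56 and 1.36, blue cones 22.0 and 13.0 and green cones 33.0 and 59.1. ON-BC over OFF-BC had a log2 fold change of 0.58 ± 0.34 that was not called (adjusted p = 1), where that of the RNA was -5.44. It was lowest in rods (pan-BC over rods 6.74 ± 0.34, adjusted p = 6.9e-10). RNA and ATAC-seq came from different libraries. *Lrrtm4* had a promoter region where pan-BC held 168 and 186, ON-BC 206 and 236, OFF-BC 160 and 145, and both rod libraries 0 (ON-BC over OFF-BC 0.53, adjusted p = 1). A second *Lrrtm4* region at +24.1 kb, in its intron and in the first exon of the predicted non-coding gene *Gm44240*, gave ON-BC 80.6 and 157, pan-BC 63.2 and 88.9, OFF-BC 5.39 and 9.73, rods 0 and blue cones 2.59 and 0. It was higher in ON-BC (log2 fold change 3.78 ± 0.79, adjusted p = 0.024), the direction of the *Lrrtm4* RNA values, but the call was lost without either OFF-BC library or the second ON-BC library (adjusted p of up to 0.19). The sequences, on the plus strand, set the start site shared by both subsets beside the intron region that differed; that of *Lrrtm4* holds 1 TAATCC on either strand, in capitals, and that of *Lrrtm3* none of the motifs.
Lrrtm3 region upstream of the start site, chr10:64090256-64090385: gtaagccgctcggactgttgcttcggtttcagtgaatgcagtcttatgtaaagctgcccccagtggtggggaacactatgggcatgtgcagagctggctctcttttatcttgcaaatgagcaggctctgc
Lrrtm4 region, chr6:80043657-80043856: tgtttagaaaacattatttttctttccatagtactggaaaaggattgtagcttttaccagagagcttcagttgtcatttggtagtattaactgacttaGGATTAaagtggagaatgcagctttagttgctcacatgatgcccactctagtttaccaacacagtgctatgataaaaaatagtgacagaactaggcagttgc

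The regions of *Lrrtm1* included 2 in an intron of *Ctnna2*, upstream of the start site. At -49.9 kb, ON-BC held 149 and 168, pan-BC 95.2 and 108, OFF-BC 16.2 and 17.5 and both rod libraries 0. ON-BC exceeded OFF-BC by a log2 fold change of 3.16 ± 0.65 (adjusted p = 0.03; the call was lost in 7 of 14 alternatives, among them each library left out in turn), while the RNA of *Lrrtm1* overlapped between them. The region at -19.3 kb gave ON-BC 142 and 143, pan-BC 74.4 and 128, OFF-BC 55.2 and 46.7 and rods 0 (ON-BC over OFF-BC 1.47, adjusted p = 0.84). The *Lrrtm2* start site had 44.0 and 71.3 for pan-BC, 47.9 and 47.7 for blue cones and 7.01 and 13.6 for rods. Rods over blue cones gave -2.18 ± 0.38 (adjusted p = 0.034; the call held in 8 of 14 alternatives, with an adjusted p of up to 0.34). A *Lrrtm2* region at +28.3 kb, within *Ctnna1*, ran opposite to the RNA, with 104 and 89.4 in rods and 0 and 1.14 in pan-BC. The *Lrrtm1* sequence is that of the region that differed between ON-BC and OFF-BC, and it holds none of the 3 motifs.
Lrrtm1 region, chr6:77192466-77192665: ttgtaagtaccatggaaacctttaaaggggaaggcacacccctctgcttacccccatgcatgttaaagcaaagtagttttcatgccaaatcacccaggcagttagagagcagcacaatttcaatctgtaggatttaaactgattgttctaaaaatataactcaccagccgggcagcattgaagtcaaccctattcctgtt

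Of the FLRT genes, *Flrt3* had a promoter open in all populations, with 232 and 377 for pan-BC against 81.0 and 102 for rods (log2 fold change 1.69 ± 0.22, adjusted p = 0.0066). A second region in its intron, at +3.0 kb, gave pan-BC 178 and 276, ON-BC 211 and 246, OFF-BC 117 and 159, rods 4.67 and 8.13 and blue cones 18.1 and 8.67. Its log2 fold change of pan-BC over rods was 4.95 ± 0.39 (adjusted p = 1.6e-07), near the RNA value of 4.23. *Flrt1* had accessible bipolar regions far upstream of its curated start site, in introns of *Macrod1* and of predicted *Flrt1* transcripts: that at -47.7 kb had 68.0 and 54.2 in pan-BC and 0 in both rod libraries. *Flrt2* had accessible regions in bipolar cells although its RNA was near the limit of detection. Its region at -1.3 kb gave pan-BC 51.2 and 47.9, OFF-BC 53.9 and 35.0, ON-BC 23.9 and 23.4 and both rod libraries 0 (pan-BC over rods 5.66 ± 0.56, adjusted p = 1.4e-06), and that at +6.6 kb 47.2 and 70.7 in pan-BC and 0 and 0.68 in rods. The *Flrt3* intron sequence is shown as the region whose difference from rods was largest for that gene, and its capitals mark CAGATG, an E-box, and TAATTA, the site of Q50 homeodomain proteins.
Flrt3 region, chr2:140668372-140668571: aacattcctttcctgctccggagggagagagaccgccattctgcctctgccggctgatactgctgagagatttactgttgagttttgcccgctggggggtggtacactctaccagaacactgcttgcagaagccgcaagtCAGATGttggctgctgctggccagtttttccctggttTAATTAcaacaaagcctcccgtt

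**Figure D5:**
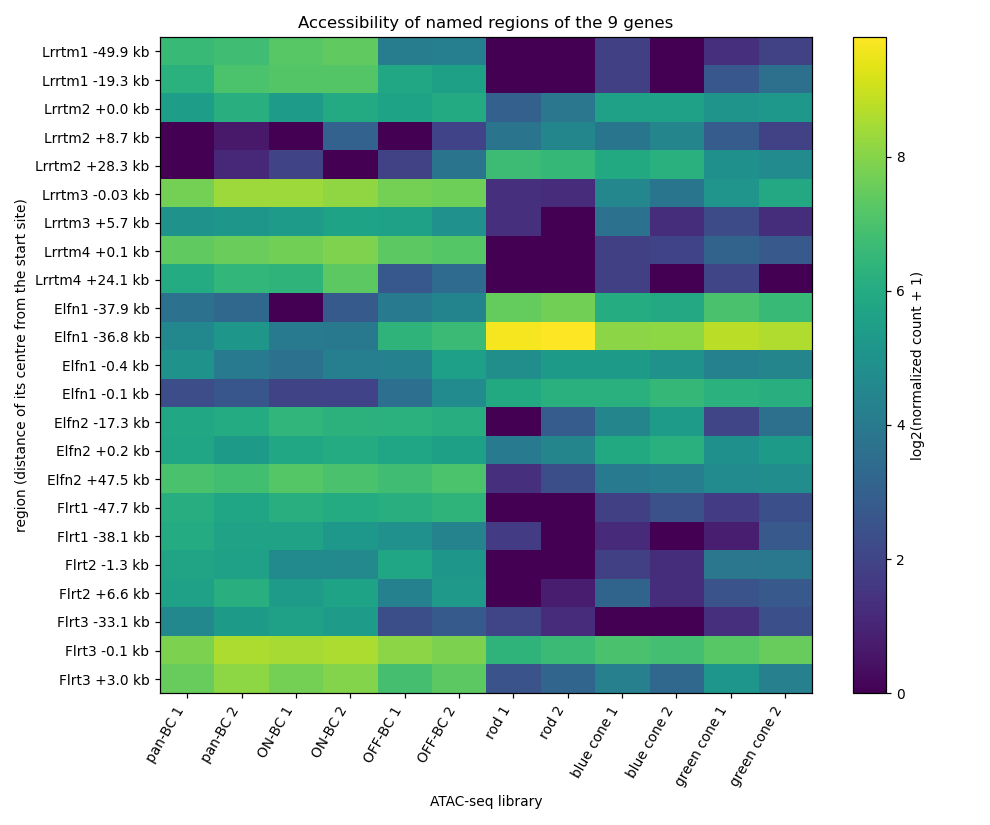
Accessibility, log2(normalized count + 1), of the named regions of the 9 genes in 12 ATAC-seq libraries; names give the distance of the region's centre from the start site. *Elfn1* at -36.8 kb is brightest in rods (806 and 878), the *Lrrtm3* and *Lrrtm4* start sites are bright in ON-BC and OFF-BC alike, and *Lrrtm4* at +24.1 kb is bright in pan-BC and ON-BC alone.

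Motifs were searched on both strands of every region. TAATCC was in 17 of the 69 regions (24.6%) and in 21.8% of all 110715 regions, CAGATG in 16 (23.2%) and in 22.3%, and TAATTA in 5 (7.25%) and in 5.2%. The share of regions with each motif was thus near that of all regions.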

How the data were processed

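RNA-seq (SMARTer kit, which does not mark strand) and ATAC-seq were made from sorted mouse retinal cells. According to the methods and the submitters' processing notes, the authors aligned RNA reads with STAR 2.7.0d to GRCm38 and assigned them to the genes of a RefSeq model by HTSeq 1.9; whether counting used strand is not given in the sources used here. ATAC-seq reads were aligned with Bowtie2 (the notes list 2.2.5), duplicates were removed with Picard 2.19.0, and peaks were called per library with MACS2 2.1.1. The deposited tables hold a signal per gene or region: counts divided by 1 size factor per library. Divided by what 1 read of the library is worth, 100% of the values above 0 lay within 0.01 of a whole number, so that reads were recovered (12329548 to 26266746 per RNA library). edgeR on these reads called 6728 genes between pan-BC and rods and 1226 between ON-BC and OFF-BC. The deposited peak files give a fold enrichment ratio, -log10 p and q values and a score, of which the ratio and the q-value were used.

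The 9 genes and the lists were chosen with earlier results of these data known. Normalized counts were taken as log2(value + 1), features were filtered with edgeR's filterByExpr on recovered reads, and limma 3.58.1 treat (R 4.3.3) tested a log2 fold change of 1 on all libraries of an assay, without covariates, as the study tested that size with DESeq2. Fold changes of low genes depend on this scale, in either direction. For pan-BC over blue cones, *Lrrtm1* had a log2 fold change of 8.52 here and 10.7 in DESeq2. *Lrrtm4*, with 1 blue cone library at 0, had 7.06 here and 5.60 in DESeq2. The labels give some bipolar replicates different ages, which match by replicate number between ON-BC and OFF-BC, but do not say which replicates were separate animals, so p-values measure the spread between these samples, which may be technical. All 9 genes were named, with all host genes and ELFN partners, up to 3 genes per other list and comparison by absolute log2 fold change among called genes, the 3 genes most alike each member, and per gene the promoter regions and the 2 regions with the largest called change; others are marked. The tests were also run on simulated counts, for ON-BC against OFF-BC only and with the same spread setting for every feature. That setting does not cover genes whose spread differs between populations. Alternatives were pseudocounts of 0.5 and 4, no filter, other scalings, edgeR 4.0.16, DESeq2 1.42.0, a test against 0, 2 populations alone, a replicate block, single libraries left out, and other peak and distance rules. Intervals cover counting error only. Sequences were read from RefSeq GRCm38.p6. Results for some genes are not reported here.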

Additional observations from a re-analysis of the deposited data

How the results depend on the processing

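No called result changed direction under any alternative run. Over the 9 genes in the 6 RNA comparisons, 816 values under an alternative stayed on the same side of the threshold, 35 gained a call and 7 lost one. Without a test against a log2 change of 1, that is testing against 0, ON-BC against OFF-BC called 4 of the 9 genes, rods against blue cones 4, pan-BC against ON-BC 3 and pan-BC against OFF-BC 4. ON-BC against OFF-BC also called 4 genes with edgeR and with the 2 populations only. The replicate block, fitted on those populations, gave 4 as well and kept every other count of calls within 1.5 times. ON-BC and OFF-BC deviations of the same number correlated at -0.0763, 0.222 and -0.0649 in RNA, and 1 of 3 numbers correlated best with its own. The ages in the labels match by number between these populations (postnatal day 43, 48 and 42), but the labels do not say that same-numbered libraries came from the same mice, and whether the numbers pair the samples cannot be told from these correlations. Pan-BC against ON-BC called 1 gene with a pseudocount of 4, and 2 with edgeR, DESeq2 or 2 populations only. Pan-BC against OFF-BC called 0 with a pseudocount of 0.5 or no filter, 2 with edgeR, 3 with 2 populations only, and 0 to 2 with single libraries left out, 2 being without the third OFF-BC library. For accessibility, a nearest start site at any distance gave the genes 167 regions in place of 69. Of these 167, 126 were called between pan-BC and rods (beside 51.6% of all regions tested) and 105 between pan-BC and blue cones (35.9%). Between ON-BC and OFF-BC 21 were called (7.39%), and between rods and blue cones 14 (10%). The counts that follow are for the 69 regions. ON-BC against OFF-BC called 2 regions with a pseudocount of 0.5, 9 with edgeR, 3 with DESeq2, 13 against 0, and 1 to 4 with single libraries left out (3 without the first and 1 without the second OFF-BC library). Rods against blue cones called 10 with a pseudocount of 0.5, 3 with 4, 13 with edgeR, 20 against 0, and 2 to 6 with single libraries left out (2 without the first rod library, 3 without either blue cone library). The causes of these changes were not tested. Over all genes, testing against 0 called 3783 between ON-BC and OFF-BC beside 919, 8068 between rods and blue cones beside 2231, 11156 between pan-BC and rods beside 6112, 10704 between pan-BC and blue cones beside 5092, 853 between pan-BC and ON-BC beside 149 and 2922 between pan-BC and OFF-BC beside 473, where edgeR called 754. Over all regions, ON-BC against OFF-BC called 8010, which became 26416 against 0, 12927 with edgeR, 4791 with DESeq2, 4014 without the first OFF-BC library and 4824 without the second ON-BC library. Rods against blue cones called 10871 regions, which became 37557 against 0, 19112 with edgeR and 7051 without the first blue cone library, and pan-BC against blue cones called 38966, which became 66171 against 0. Scaling by library totals moved the share of calls higher in pan-BC from 63.8% to 74.0% against rods and moved the median log2 fold change of all genes from 0.21 to 0.55 there and from 0.16 to 0.44 against blue cones. At low counts (*Flrt2*, and *Lrrtm1* in photoreceptors) depth limits what can be seen, and with 3 libraries (2 for accessibility) per population so does the spread.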
